A study of Mus musculus with 6 samples.

Results

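The core genes of insulin and insulin-like growth factor 1 (IGF1) signalling were compared between the inguinal white adipose tissue (iWAT), a subcutaneous fat depot, of Zip13-KO mice and that of their WT littermates. The 9 genes were the ligand gene Igf1, the receptor genes Insr and Igf1r, the adaptor genes Irs1 and Irs2, the PI3K regulatory subunit gene Pik3r1, the kinase genes Akt1 and Akt2, and the transcription factor gene Foxo1. They were chosen by name, with every array probe designed on a RefSeq transcript of the gene, and they made up 9 of the 15306 genes and 18 of the 20318 named probes that could be tested. Total RNA of 3 WT and 3 Zip13-KO samples was hybridised to 6 Agilent one-colour arrays. The Zip13-KO allele lacks exons 6 to 8 of Slc39a13, the gene of the zinc transporter ZIP13, with a Neo cassette in their place. It was made in R1 embryonic stem cells and is carried by the whole animal. All mice were of the C57BL/6J background after more than 7 generations of backcrossing and were 10 weeks old. They ate powdered food because the Zip13-KO mice have few teeth. The protocols name a standard and a high-fat food without saying which these mice received. The labels do not say that the 3 samples of a genotype were 3 animals, so the p-values measure the spread between these samples.

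Insulin and IGF1 bind the closely related receptor tyrosine kinases encoded by Insr and Igf1r, which phosphorylate the docking proteins IRS1 and IRS2. These recruit PI3K, whose lipid product activates AKT. In adipocytes, AKT2 is the isoform best known for sending the glucose transporter GLUT4 to the cell surface, and AKT in general holds FOXO factors such as FOXO1 out of the nucleus. Much of this control acts on phosphorylation, which a transcript array does not read.

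The transcript of the targeted gene was low in every Zip13-KO sample. Slc39a13 read 11.29, 10.87 and 10.72 (normalized log2 intensity) in WT and 6.76, 6.66 and 6.47 in Zip13-KO, 20.1-fold lower (limma, adjusted p = 0.00128), still above background. Where its probe lies with respect to the deleted exons was not known from the files. Spots that exceeded background clearly made up 62.5 to 63.2% of each WT array and 58.8 to 60.4% of each Zip13-KO array. Before normalization the median processed signal was 39.2 to 40.6 in WT and 33.2 to 35.0 in Zip13-KO. No spot was saturated. The 6 arrays lay on 1 slide and were scanned once. Its first column held the WT arrays with Zip13-KO replicate 1, and its second column held the remaining Zip13-KO arrays. Log2 values correlated at 0.986 to 0.993 among WT arrays, at 0.994 to 0.995 among Zip13-KO arrays and at 0.960 to 0.984 between genotypes.

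Markers of the cell types in the depot moved as well. All 8 brown and beige adipocyte markers rose in Zip13-KO, and their summed level (linear normalized intensity) was 36019 to 57996 in WT and 161294 to 250679 in Zip13-KO. Of the 8 general adipocyte markers 4 rose and 0 fell, with a summed level of 315106 to 416874 in WT and 480943 to 512997 in Zip13-KO. Of the 8 macrophage markers 6 fell, with a summed level of 69033 to 108559 in WT and 34516 to 42311 in Zip13-KO. For stromal progenitors and fibroblasts, 2 of 8 markers fell and the sums overlapped (251142 to 562557 in WT and 225827 to 278161 in Zip13-KO). Endothelial markers rose in 2 of 6 cases, with sums of 13413 to 14338 in WT and 16687 to 18301 in Zip13-KO, and 1 of 7 lymph node markers fell, with sums of 26557 to 32206 in WT and 21856 to 23774 in Zip13-KO. None of the 7 tested skeletal muscle markers and none of the 4 tested mammary epithelium markers passed the test, and their sums overlapped between genotypes, at 1094 to 3179 in WT and 1795 to 6809 in Zip13-KO for muscle and at 96.2 to 330 and 112 to 438 for mammary epithelium. The brightest markers of these lists were Cox8b, Fabp4, Csf1r, Col1a2, Cldn5, Ms4a1, Acta1 and Krt18. In bulk tissue, fewer cells of a type and less RNA per cell cannot be told apart, and the part of these shifts in the results that follow was not tested.

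Of the 9 genes, Irs1 rose 2.05-fold and Akt2 rose 1.55-fold in Zip13-KO iWAT, and none fell past the test. A gene passed the test when its limma p-value, adjusted by Benjamini-Hochberg over all 15306 genes, was under 0.05 and its change exceeded 1.5-fold, which is 0.58 on the log2 scale. By that rule 18.7% of all genes passed, with 10.3% of all genes higher and 8.38% lower in Zip13-KO, so 2 of 9 was close to the share among all genes. With no limit on size, 3 of the 9 were higher (Insr, Irs1 and Akt2) and 1 was lower (Akt1), where 34.5% of all genes passed, 19.3% higher and 15.2% lower. The WT and Zip13-KO samples did not overlap for 5 of the 9, which were Insr, Irs1, Irs2 and Akt2 on the higher side and Akt1 on the lower side, and they did not overlap for 55.1% of all genes, 29.2% on the higher and 25.9% on the lower side. The median change of the 9 genes was 0.19 on the log2 scale, with 7 of them above 0, against a median of -0.00051 over all genes tested. All 18 probes passed the filter on dim probes and were above background on all 6 arrays.

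**Figure D1:**
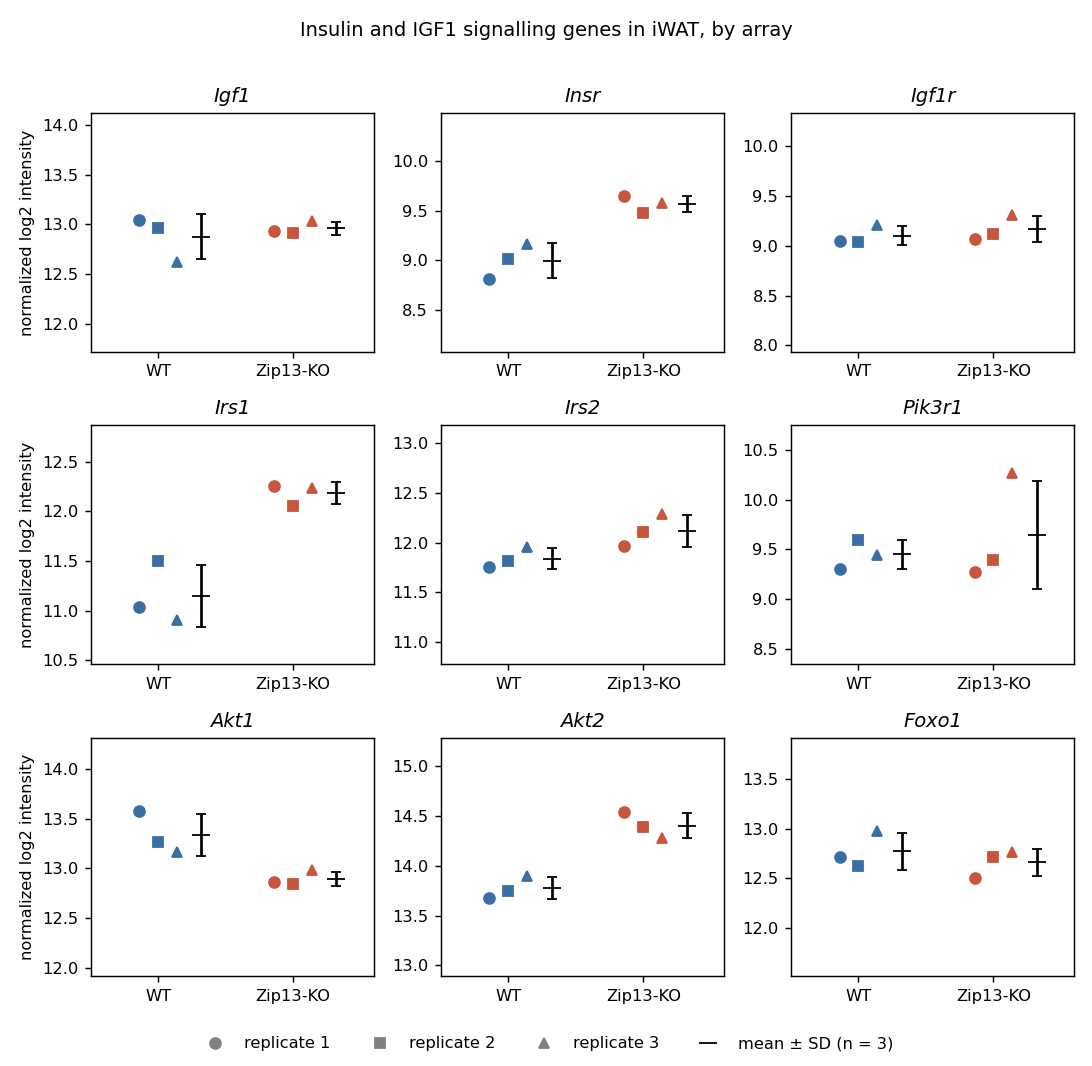
Normalized log2 intensity (vertical axis) of the 9 genes in the 3 WT (blue) and 3 Zip13-KO (red) samples, 1 panel per gene, each spanning the same height on the log2 scale. Symbols mark the replicate number and the bars give the mean ± SD (n = 3). Irs1 and Akt2 lie higher in all Zip13-KO samples, and Pik3r1 shows 1 Zip13-KO sample far above the others.

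Igf1, the gene of the ligand, which adipose tissue makes in addition to the liver, did not pass the test. It read 13.05, 12.97 and 12.62 in WT and 12.93, 12.92 and 13.03 in Zip13-KO, and the genotypes overlapped. The log2 difference was 0.08 ± 0.13 (SE, limma, adjusted p = 0.63), with a 95% interval from -0.22 to 0.39. The 4 Igf1 probes gave differences of 0.06 to 0.14, and the lowest WT value of each came from WT replicate 3.

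Neither receptor gene passed the test. Insr, which encodes the insulin receptor, read 8.82, 9.01 and 9.16 in WT and 9.64, 9.48 and 9.58 in Zip13-KO. Every Zip13-KO sample lay above every WT sample, and the difference was 0.57 ± 0.11 on the log2 scale (SE, limma, adjusted p = 0.0135), a ratio of 1.48, just under the 1.5-fold limit. The other Insr probes gave 0.47 (adjusted p = 0.0182) and 0.57 (adjusted p = 0.0104), again with no overlap. Igf1r, which encodes the IGF1 receptor, read 9.05, 9.04 and 9.21 in WT and 9.07, 9.12 and 9.32 in Zip13-KO. These values overlapped, and the difference was 0.07 ± 0.10 (SE, adjusted p = 0.618), with a 95% interval from -0.17 to 0.31.

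Irs1, a main docking protein gene of the insulin receptor in adipocytes, gave the largest change of the 9. It read 11.04, 11.50 and 10.91 in WT and 12.25, 12.05 and 12.23 in Zip13-KO. The lowest Zip13-KO sample stood above the highest WT sample, WT replicate 2, and the Zip13-KO samples lay closer together than the WT samples (SD 0.11 and 0.31). The log2 difference was 1.03 ± 0.17 (SE, limma, adjusted p = 0.00925), with a 95% interval from 0.63 to 1.44. The other Irs1 probe, much dimmer, gave 1.08 (adjusted p = 0.00701). Irs2, the related docking protein gene, read 11.75, 11.81 and 11.95 in WT and 11.97, 12.10 and 12.29 in Zip13-KO. The genotypes did not overlap, but by a margin smaller than the spread within either, and the difference of 0.28 ± 0.11 (SE, adjusted p = 0.0929) did not pass the test.

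The RefSeq promoter sequences of Irs1 and Irs2 (GRCm38.p6) are given because Irs1 passed the test and Irs2, its closest relative among the 9, did not. Each is the 250 bases upstream of the start of transcription, read 5′ to 3′ on the strand of the gene, with matches to the E-box CACGTG and to the GC box GGGCGG in capitals.
Irs1, chr1:82291440-82291689 (minus strand): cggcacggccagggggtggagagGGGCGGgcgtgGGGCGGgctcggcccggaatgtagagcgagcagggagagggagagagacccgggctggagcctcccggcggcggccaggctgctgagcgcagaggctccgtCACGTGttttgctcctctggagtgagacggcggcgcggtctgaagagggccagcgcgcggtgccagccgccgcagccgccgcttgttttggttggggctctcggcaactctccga
Irs2, chr8:11008930-11009179 (minus strand): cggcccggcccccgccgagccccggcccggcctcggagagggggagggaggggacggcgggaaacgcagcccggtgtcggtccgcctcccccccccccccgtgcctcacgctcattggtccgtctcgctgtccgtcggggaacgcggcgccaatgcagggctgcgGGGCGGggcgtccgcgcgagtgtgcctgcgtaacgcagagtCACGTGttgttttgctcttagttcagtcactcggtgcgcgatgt
Both windows held 1 E-box, 115 to 110 bases before the start in Irs1 and 44 to 39 bases before it in Irs2, and 6.02% of the 32851 mouse promoter windows of this length in the table held one. Irs1 held 2 GC boxes and Irs2 held 1, where 32.7% of all windows held at least 1. The windows were alike in base composition, with 72.4 and 72.8% G and C against a median of 52.4% over all promoters. Neither had a match, on either strand, to the FOXO site GTAAACA (3.17% of all windows), to the C/EBP site TTGCNNAA (9.56%) or to the PPAR direct repeat (0.0335%). A match describes the letters only.

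Pik3r1 encodes the regulatory subunit that brings PI3K to the IRS proteins, and 1 sample set its value. It read 9.31, 9.60 and 9.45 in WT and 9.27, 9.39 and 10.27 in Zip13-KO. Zip13-KO replicate 3 stood above all others, while Zip13-KO replicates 1 and 2 lay within or below the WT range. The difference was 0.19 ± 0.27 (SE, limma, adjusted p = 0.603) and turned to -0.12 without Zip13-KO replicate 3. The pooled SD of Pik3r1 was 0.40, larger than that of 90.4% of all genes.

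Of the AKT genes, Akt2 passed the test and Akt1 did not. Akt2 read 13.68, 13.75 and 13.90 in WT and 14.54, 14.39 and 14.28 in Zip13-KO, with no overlap. It rose by 0.63 ± 0.10 on the log2 scale (SE, limma, adjusted p = 0.00933), with a 95% interval from 0.38 to 0.88. A second Akt2 probe gave 0.64 (adjusted p = 0.0133) and also passed, whereas the third and dimmest gave 0.43 (adjusted p = 0.0188), under the 1.5-fold limit. The Akt2 call rested on its size: the difference was 0.56 without Zip13-KO replicate 1, where the adjusted p was 0.0394. Akt1, the isoform more often tied to growth and survival, read 13.57, 13.26 and 13.17 in WT and 12.86, 12.85 and 12.98 in Zip13-KO. Every Zip13-KO sample lay below every WT sample, and the difference was -0.44 ± 0.12 (SE, limma, adjusted p = 0.0369), a ratio of 1.36 in favour of WT and under the size limit. With arrays scaled to their 75th percentile the Akt1 difference was -0.32 with an adjusted p of 0.0774.

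For the same kind of contrast the first listed promoter of each AKT gene is shown, the 250 bases upstream of the start in RefSeq (GRCm38.p6), 5′ to 3′ on the strand of the gene. Capitals mark the FOXO site GTAAACA, which reads TGTTTAC on the other strand, and the GC box, which reads CCGCCC there.
Akt1, chr12:112674885-112675134 (minus strand): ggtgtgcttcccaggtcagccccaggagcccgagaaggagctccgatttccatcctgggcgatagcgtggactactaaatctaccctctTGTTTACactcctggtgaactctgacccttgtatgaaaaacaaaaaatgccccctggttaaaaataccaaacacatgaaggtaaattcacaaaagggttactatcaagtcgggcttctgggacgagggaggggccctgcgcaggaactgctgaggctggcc
Akt2, chr7:27591302-27591551 (plus strand): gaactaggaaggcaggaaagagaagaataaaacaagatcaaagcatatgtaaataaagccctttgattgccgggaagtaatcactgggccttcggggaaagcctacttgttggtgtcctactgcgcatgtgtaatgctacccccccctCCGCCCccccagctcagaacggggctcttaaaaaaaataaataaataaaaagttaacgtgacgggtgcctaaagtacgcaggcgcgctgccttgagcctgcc
The Akt1 window held 1 FOXO site, 161 to 155 bases before the start. Of all promoter windows 3.17% had such a match, and none of the other windows searched for these genes had one. A second Akt1 start in the table had 4 GC boxes and no FOXO site. The Akt2 window held 1 GC box, and the 3 other Akt2 starts held none of the 5 motifs searched. Which start is used in iWAT was not measured. Promoter sequences with 13 starts were available for 8 of the 9 genes. Insr had none, so its promoter was not searched. There were 2 GC boxes in Igf1r, 4 at the first Pik3r1 start, 2 in Foxo1 and no match of any kind in Igf1. No window of these 13 held a C/EBP site or a PPAR direct repeat.

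Foxo1 encodes the FOXO factor that insulin restrains through AKT, and it did not pass the test. It read 12.71, 12.62 and 12.98 in WT and 12.51, 12.71 and 12.76 in Zip13-KO, and the genotypes overlapped. The difference was -0.11 ± 0.13 (SE, limma, adjusted p = 0.521), with a 95% interval from -0.42 to 0.20. The other Foxo1 probe gave 0.03 (adjusted p = 0.891), so the probes differed in sign.

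At the level of probes, 4 of the 18 rose and 0 fell, both probes of Irs1 and 2 of the 3 of Akt2, where 18.3% of all kept probes passed the test, 9.96% higher and 8.34% lower. The genotypes did not overlap for 10 of the 18, 9 of them higher and 1 lower, against 54.5% of all kept probes, 28.2% higher and 26.2% lower. The 3 probes of Insr, the 2 of Irs1 and the 3 of Akt2 each gave a direction shared within the gene, and Igf1r, Irs2, Pik3r1 and Akt1 had 1 probe each. Probes of a gene read the same RNA samples and are not replicates.

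**Figure D2:**
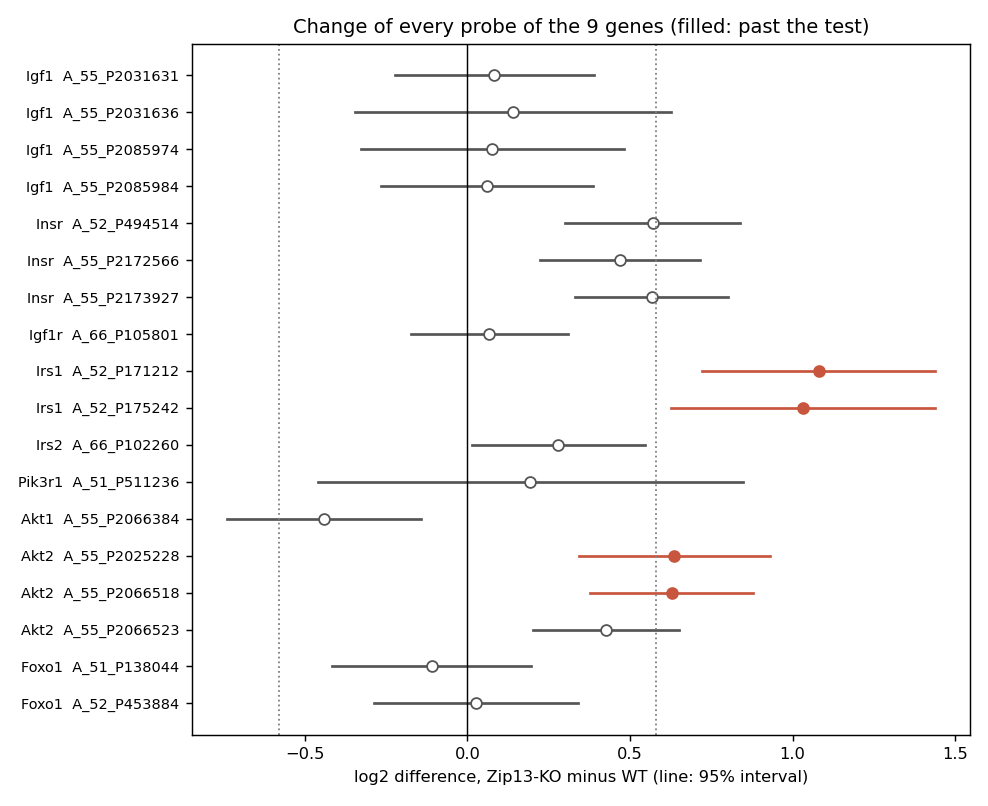
Log2 difference between Zip13-KO and WT (horizontal axis) for each of the 18 probes, with its 95% interval, the dotted lines at the 1.5-fold limit and filled red symbols for probes past the test. The 2 Irs1 probes lie farthest to the right, at 1.03 and 1.08, the 3 Insr probes lie between 0.47 and 0.57, and Akt1 is the only gene whose interval lies below 0.

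Slide position was checked, since only Zip13-KO replicate 1 shared a column with the WT arrays. Within that column it exceeded the mean of the 3 WT arrays by 1.10 for Irs1, 0.76 for Akt2 and 0.65 for Insr on the log2 scale, and lay 0.47 below it for Akt1 (-0.47). This rests on 1 Zip13-KO array, and the part of slide position in the differences was not tested further. With the column as a block in limma, which leaves 1 Zip13-KO array to set the difference, the adjusted p was 0.0753 for Irs1 and 0.0619 for Akt2, so neither call held, and among all genes 0 passed higher and 7 lower. In that fit Pik3r1 lay at -0.18, Igf1r at -0.03, Irs2 at 0.13 and Foxo1 at -0.26, against 0.19, 0.07, 0.28 and -0.11 over all samples.

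Whether related genes changed unequally was tested within arrays, by subtracting the log2 value of one from that of the other on each array. Relative to the WT mean, Insr minus Igf1r was -0.13, 0.08 and 0.05 in WT and 0.68, 0.46 and 0.37 in Zip13-KO. The difference was thus 0.50 on the log2 scale in favour of Insr, with SDs of 0.11 in WT and 0.16 in Zip13-KO. Irs1 minus Irs2 was -0.02, 0.38 and -0.36 in WT and 0.98, 0.64 and 0.64 in Zip13-KO, a difference of 0.75 in favour of Irs1. Akt1 minus Akt2 was 0.33, -0.04 and -0.29 in WT and -1.24, -1.10 and -0.86 in Zip13-KO, a difference of -1.07, the largest of the 3 pairs. The genotypes did not overlap in any pair. In each pair the exact permutation test, two-sided, gave p = 0.1, which is the smallest value 3 against 3 samples allow, and p = 0.1 after adjustment over the 3 pairs, so no pair could pass the threshold. Unequal change within pairs was therefore not established by this test.

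**Figure D3:**
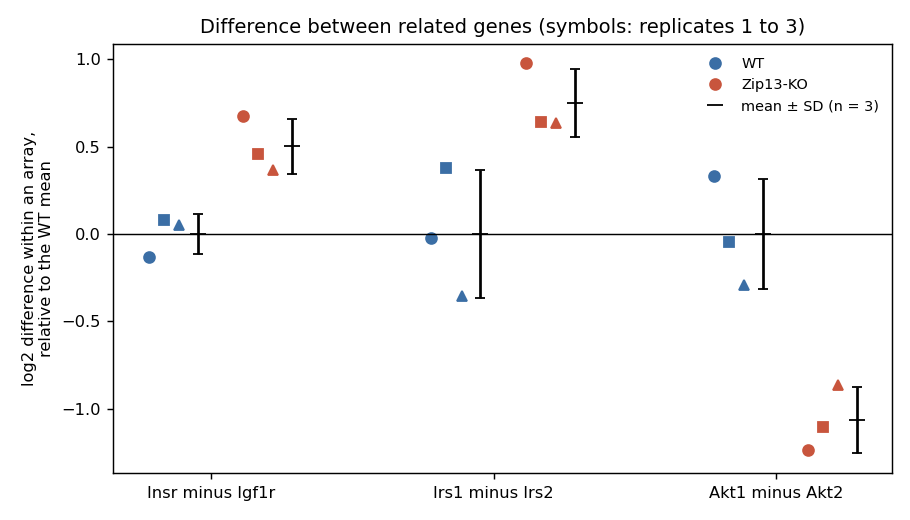
Difference in log2 intensity between 2 related genes within each array, relative to the WT mean (vertical axis), for 3 pairs (horizontal axis) in WT (blue) and Zip13-KO (red) samples, with mean ± SD (n = 3). The 3 Zip13-KO samples lie above the WT samples for Insr minus Igf1r and Irs1 minus Irs2 and below them for Akt1 minus Akt2, with p = 0.1 by the exact permutation test in each pair.

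The rest of the pathway was described with a list of 56 further genes, of which 54 were tested and Igf2 and Igfbp1 had no probe past the filter on dim probes. Of the 54, 12 rose and 5 fell in Zip13-KO, 31.5% against 18.7% of all genes, with a median change of 0.14 on the log2 scale and 35 above 0. The count depended on single arrays. Without Zip13-KO replicate 1 it was 3 higher and 3 lower, 11.1% against 11.2% of all genes, so the list no longer stood above the share among all genes. Without Zip13-KO replicate 2 it was 3 higher and 5 lower, 14.5% against 11.7%, and without Zip13-KO replicate 3 it was 7 higher and 5 lower, 22.2% against 15.2%. The 2 risen genes Pik3cb and Foxo6 and the 3 fallen genes Cbl, Pik3cd and Socs3 passed whichever sample was left out.

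Among the ligands and binding proteins, 1 of 7 rose. This was Igfals, whose product holds IGFs in a complex in the blood (log2 change 0.79, limma, adjusted p = 0.0215). It passed in 2 of the 6 fits that left out a sample. Igfbp6, which binds IGF2 in preference to IGF1, gave the lowest value, -0.90 (adjusted p = 0.0551), and did not pass. Of the 2 further receptors, neither passed: the IGF2 receptor gene Igf2r differed by 0.21 and the orphan receptor gene Insrr by -0.01.

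Among 8 adaptors, 3 rose and 2 fell, and 4 of these are described here. Irs3, a docking protein gene of the IRS family expressed in rodent fat, rose by 1.24 (limma, adjusted p = 0.0254), and Sh2b2, which encodes the APS adaptor of the insulin receptor, by 1.10 (adjusted p = 0.0137). They passed in 2 and 4 of the 6 fits that left out a sample. Those that fell were Grb2, which links receptors to the RAS pathway (-0.62, adjusted p = 0.00874), and the ubiquitin ligase gene Cbl (-0.71, adjusted p = 0.0117). With arrays scaled to their 75th percentile Grb2 was -0.53, under the size limit. Of the 3 PI3K catalytic subunits tested, 1 rose, 1 fell and Pik3ca, the p110-alpha gene, differed by 0.0013 (adjusted p = 0.992). Pik3cb, the broadly expressed p110-beta gene, rose by 1.19 (adjusted p = 0.0107), and Pik3cd, the p110-delta gene known from leukocytes, fell, with a change of -0.74 (adjusted p = 0.0046). Macrophage markers given above were lower too, and their part in the Pik3cd value was not tested. Of the 10 kinases, Mtor, the kinase of the mTOR complexes, rose by 0.66 (adjusted p = 0.0141) and none fell past the test.

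The 15 inhibitors did not share a direction. Trib3, a pseudokinase that binds AKT, rose by 0.83 (limma, adjusted p = 0.0186), and Deptor, an inhibitor of mTOR, by 0.97 (adjusted p = 0.0129). Ptpn1, the phosphatase PTP1B that acts on the insulin receptor, gave -0.64 (adjusted p = 0.0115), and Socs3, a cytokine-induced inhibitor of insulin signalling, gave -1.13 (adjusted p = 0.011), and both fell. Trib3 and Deptor each passed in 4 of the 6 fits that left out a sample, Ptpn1 in 5 and Socs3 in all 6. With normexp background correction Ptpn1 was -0.575, under the size limit. Among the other FOXO genes, Foxo6 rose by 1.46 (adjusted p = 0.00855) and Foxo4 by 0.65 (adjusted p = 0.0314), whereas Foxo3 differed by -0.12 (adjusted p = 0.55). Foxo4 passed in only 1 of the 6 fits that left out a sample, and its change was 0.08 with normexp background correction (adjusted p = 0.403) and 0.19 with none (adjusted p = 0.0578). Foxo6 still passed with normexp, at 0.84. The Foxo3 probe was dim, with means of 4.27 in WT and 4.15 in Zip13-KO, and above background on only 2 of the 3 Zip13-KO arrays. Its change was 0.018 with normexp. Of 4 effectors of glucose and lipid handling, 2 rose. They were Slc2a4, the gene of GLUT4, by 1.08 (adjusted p = 0.0337) and Pde3b, the phosphodiesterase through which insulin restrains lipolysis, by 0.81 (adjusted p = 0.0382), and they passed in 3 and 1 of the 6 fits with a sample left out.

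Target genes attributed to FOXO factors in other tissues went in both directions. Of 20 listed, 18 were tested (Igfbp1 and Trim63 had no probe past that filter), and 7 rose and 1 fell, 44.4% against 18.7% of all genes, with a median change of 0.23. Without Zip13-KO replicate 1, 3 rose and 1 fell, 22.2% against 11.2% of all genes. Those that rose were Pck1, the enzyme of glyceroneogenesis in fat (0.71), G6pc (0.88), Pdk4, which restrains pyruvate oxidation (1.25), the antioxidant genes Sod2 (0.77) and Cat (0.61), Klf15 (1.07) and Ppargc1a (1.10). The last, a coactivator of mitochondrial genes, also stood in the list of brown and beige adipocyte markers. Bcl2l11, the gene of the cell death protein BIM, was the one that fell, with a change of -1.13. Pdk4, Ppargc1a and Bcl2l11 passed whichever sample was left out, whereas Klf15 passed in 2 of those 6 fits. The changes of the dim probes of Bcl2l11 and G6pc depended on the background correction, at -0.33 and 0.25 with normexp and at -0.50 and 0.30 with no correction, all under the size limit.

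The growth hormone axis, which drives Igf1 in many tissues, gave 0 of 6 genes past the limma test, where 18.7% of all genes passed. Cish, a STAT5 target, gave the largest difference, 0.80 (adjusted p = 0.518), with 12.02 in Zip13-KO replicate 3 and 8.78 and 8.65 in the other Zip13-KO samples, and the value turned to -0.31 without that sample. This was the sample that stood high for Pik3r1, and it also gave the highest value of 6 of the 7 tested skeletal muscle markers, with a summed level of 6809 against 1094 to 3179 in the other samples. The part of muscle RNA in either value was not tested. Socs2, another STAT5 target, gave the lowest value, -0.47 (adjusted p = 0.0334), under the size limit. At an adjusted p under 0.05 by limma with no limit on size, 1 of the 6 genes was higher and 2 were lower. By that rule 34.5% of all genes passed, 19.3% higher and 15.2% lower. At an unadjusted p under 0.05 by limma with no limit on size, 3 of the 6 genes passed, where 47.2% of all genes did.

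**Figure D4:**
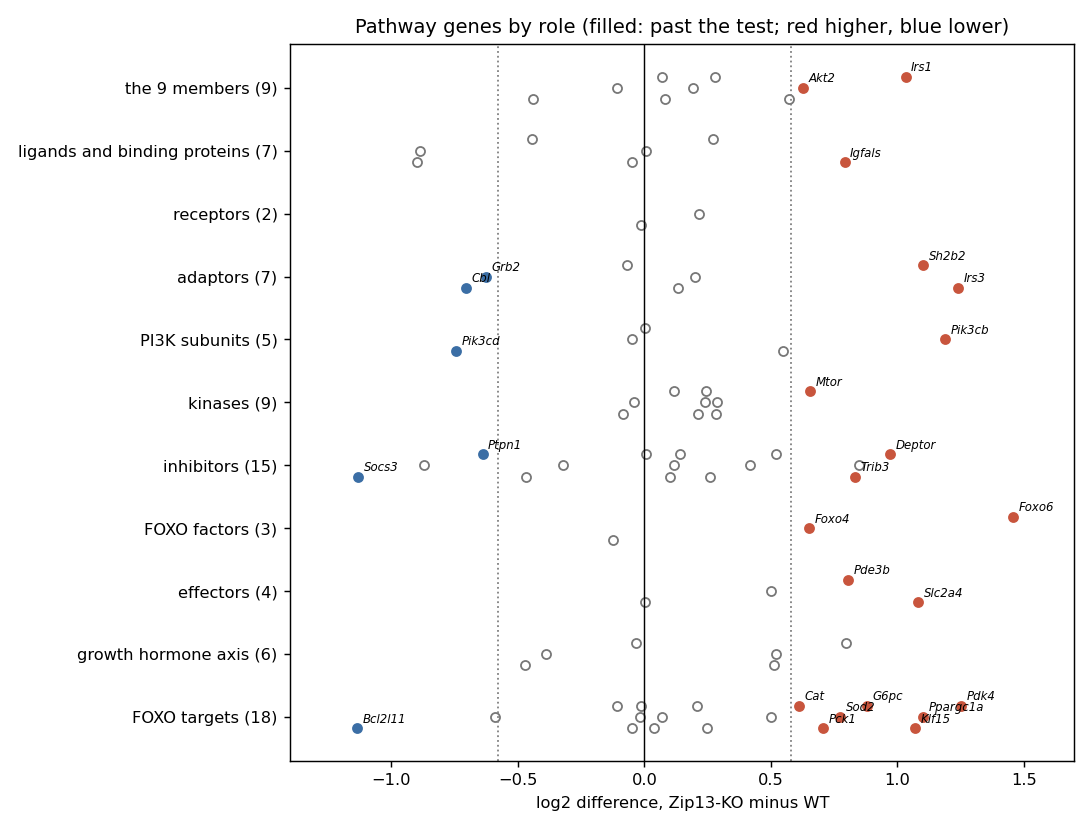
Log2 difference between Zip13-KO and WT (horizontal axis) for the 9 genes, for 52 of the 54 further pathway genes by role, and for the growth hormone axis and FOXO target lists, with the number of genes drawn in parentheses. Filled symbols passed the test (red higher, blue lower) and dotted lines mark the 1.5-fold limit, so that 11 pathway genes stand filled on the right and 5 on the left.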

How the data were processed

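Feature Extraction 11.5.1.1 had written the authors' scanner files, in which each spot has a processed signal, corrected for background, in intensity units. The authors' deposited table held normalized log2 values and served as an alternative. Here, control and outlier spots were left out, spots of a probe were averaged, and log2 processed signals were quantile normalized, as the supplementary methods state. A probe was kept where the scanner software marked it as well above background in all 3 samples of either genotype, and the brightest kept probe stood for a gene. Accessions were matched without version to RefSeq (GRCm38.p6), which named 28331 of 55681 probes. The genotypes were compared with limma 3.58.1 in R 4.3.3, tested on simulated data, in place of the authors' integrative test, which could not be rerun from its description. Spread between 3 arrays per genotype limits the precision.

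Named were the 9 genes with every probe, and from each role group, the growth hormone axis and the FOXO targets, each gene past the test with the largest rise and fall. Members, lists and tests were chosen with earlier results of these data known. Alternatives covered background, normalization, filter, probe summary, test, thresholds, replicate block and left-out arrays, and slide column was added after the data were seen. Of the pathway list, 2 genes count in its totals and are otherwise not reported here. The files give no probe positions, so none are printed.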

Additional observations from a re-analysis of the deposited data

How the results depend on the processing

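Over the 21 alternatives run, of which slide column was chosen after seeing the data, the 9 genes gave 189 results. Of these 172 kept their direction and their side of the threshold, 5 lost the call (Irs1 once, Akt2 4 times), 4 gained it (Insr 3 times, Akt1 once) and 8 changed sign, all of differences that did not pass the test. Irs1 passed the test in all but the fit with slide column as a block. Akt2 was 0.57 with the deposited table and 0.56 with the mean of its probes, both under the size limit, which left 1 of the 9 genes higher. In these fits 1259 and 1534 of all genes passed higher. The adjusted p of Akt1 ranged from 0.0247 to 0.166 and was 0.0812 with the replicate block. With the slide column as a block, 0 of the 9 genes passed higher, and 0 genes in all passed higher and 7 lower, with Igf1r at -0.032 and Pik3r1 at -0.18. With no limit on size, 1 of the 9 genes, 1 of their probes, 2 growth hormone axis genes and 2330 of all genes passed lower, and 8 probes, 1 growth hormone axis gene and 2951 of all genes passed higher. At an adjusted p under 0.01, 1 pathway gene, 2 FOXO targets and 707 of all genes passed higher, and 2 pathway genes and 505 of all genes lower. The methods' t-test after Benjamini-Hochberg adjustment gave 4 pathway genes, 4 FOXO targets and 1007 of all genes higher and 721 lower. Without a filter 7 pathway genes and 1376 of all genes passed higher, against 12 and 1576 with the filter. No FOXO target passed lower (a count of 0) with normexp, with no background correction or with the authors' deposited values. In these fits 907, 1009 and 1006 of all genes passed lower, and Foxo3 was 0.018 with normexp. With medians in place of means, Igf1 was -0.033, its other probes -0.11, -0.11 and -0.040, Pik3r1 -0.058, Foxo1 0.0010, Cish -0.37 and the growth hormone axis median -0.20. Leaving out 1 array at a time, the count of the 9 genes past the test ranged from 1 to 3 higher, the pathway from 3 to 12 higher and 3 to 7 lower, FOXO targets from 3 to 6 higher and 1 to 2 lower, the growth hormone axis from 0 to 2 higher with a median of -0.17 to 0.28, and all genes from 955 to 1670 higher and 767 to 1475 lower. In these fits Insr ranged from 0.48 to 0.65, Igf1 from -0.043 to 0.17 (other probes -0.059 to 0.27, -0.088 to 0.18 and -0.075 to 0.16), Igf1r from -0.0051 to 0.12, Pik3r1 from -0.12 to 0.38, the second Foxo1 probe from -0.057 to 0.15, Insrr from -0.28 to 0.22, Cish from -0.31 to 1.37 and Foxo3 from -0.23 to 0.036. Insr passed the test without WT replicate 3 or Zip13-KO replicate 2. The pairs of related genes kept their direction in every alternative run on them. The cause of these shifts was not tested. Fits with an array left out rested on fewer samples, but their counts did not all fall. Without WT replicate 2, 1670 of all genes passed higher, against 1576 over all samples. Replicate numbers are shared between the genotypes, and the labels do not say that they pair samples. Deviations of same-numbered arrays correlated at -0.02, 0.04 and -0.08, and those of different-numbered arrays at -0.17 to 0.18. With 3 arrays per genotype, these values cannot decide whether the samples are paired. With the replicate block, 2 of the 9 genes, 3 of their probes, 8 pathway genes and 1278 of all genes passed higher, and 5 pathway genes and 1051 of all genes lower.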

Other observations

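Genes that tracked Irs1 or Akt2 were sought among the 133 tested genes of the pathway, growth hormone axis, FOXO target and cell type marker lists. The core genes were left out of this search. Those whose log2 values tracked Irs1 best over the 6 arrays were Inppl1, with a Pearson r of 0.967, and Cat, with 0.939. Inppl1 is the gene of the lipid phosphatase SHIP2. For Akt2 the best were Pik3cb, with 0.986, and Rhoq, a small GTPase gene linked to GLUT4 traffic, with 0.980. These are descriptions over 6 arrays of 2 genotypes, and the difference between the genotypes enters each of them.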
